A study of Homo sapiens with 4 samples.

Results

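Cullin-RING ligases are the multi-subunit enzymes that attach ubiquitin to a large share of the regulatory proteins of a cell. The 9 genes described here encode 6 cullin scaffolds (CUL1, CUL2, CUL3, CUL4A, CUL4B and CUL5), the RING subunit RBX1, the CUL4 adaptor DDB1, and PCID2, a messenger RNA export factor whose gene starts head to head with CUL4A. They were taken by name from 19974 protein-coding genes of the RefSeq annotation. Their regions were the called peaks that overlapped a gene or the 5000 bp on either side, which came to 56 of 128195 merged regions. CUL4A and PCID2 were chosen by a measured value, the difference in summed counts between the treatments at their common start in these same libraries, and the other genes because they belong to the same enzyme family. The difference at that start is therefore given as a description, and no p-value is attached to any of the 9 genes as a result.

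In a cullin ligase, the scaffold holds RBX1 at one end, which recruits the ubiquitin-conjugating enzyme, and a substrate receptor at the other, joined by an adaptor. CUL1 works through SKP1 and F-box proteins, CUL2 and CUL5 through the elongins, CUL3 through BTB-domain proteins such as KEAP1, and CUL4A and CUL4B through DDB1. Attachment of the small protein NEDD8 to the cullin switches the enzyme on, and the COP9 signalosome takes it off again. In carcinoma cells these ligases are best known for turning over cell-cycle inhibitors, replication licensing factors and transcription factors.

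The libraries were single-nucleus ATAC-seq, in which a transposase inserts into open chromatin and the resulting fragments are read out as counts in called peaks. They were made from human Panc1 cells, an established line of pancreatic ductal carcinoma, after transplantation into mice. Grafts from 2 mice that received Inflachromene, a small molecule that binds HMGB proteins (mice 11 and 35), were compared with grafts from 2 mice that received Carrier (mice 12 and 31). All 4 carried the same cell line, no dose, duration, mouse strain or age is given in the labels, and each group rests on 1 library from each of 2 animals.

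The deposited tables held 27088391 and 39947056 counts in Inflachromene mice 11 and 35, and 33336531 and 29295799 counts in Carrier mice 12 and 31. Starts of the carcinoma and mesenchymal marker genes were open in all 4 libraries, apart from KRT7 (5 of 6 and 3 of 3 genes), and none of the 9 endothelial, acinar and endocrine marker genes had a region. Of the fibroblast markers 2 of 4 had a region and of the leukocyte markers 3 of 4, with PTPRC, DCN and LUM absent. The leukocyte markers together held 51.9 and 57.0 CPM (counts per 1e6 consensus counts, scaled for library composition) under Inflachromene and 58.1 and 48.9 CPM under Carrier. Inflachromene mouse 11 shared 1209 barcodes with Carrier mouse 12. Of these, 1115 reached 2000 counts only in Carrier mouse 12 and 10 reached it in both. Removing each shared barcode from the library where it had fewer counts took away at most 0.988% of a library's counts.

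The promoter windows on which the results turn are shown here. They cover 250 bases before and 50 bases after an annotated start, from RefSeq on GRCh38.p14, printed 5′ to 3′ on the strand of the gene. Capitals mark matches on either strand to an ETS motif (CCGGAAG), an SP1 motif (GGGCGGG) or the CCAAT box. The PCID2 window also spans the inner CUL4A starts, the CUL4A window belongs to the outermost downstream start, and CUL4B and DDB1 are the paralogue and the partner of CUL4A.
PCID2, chr13:113208620-113208919, minus strand: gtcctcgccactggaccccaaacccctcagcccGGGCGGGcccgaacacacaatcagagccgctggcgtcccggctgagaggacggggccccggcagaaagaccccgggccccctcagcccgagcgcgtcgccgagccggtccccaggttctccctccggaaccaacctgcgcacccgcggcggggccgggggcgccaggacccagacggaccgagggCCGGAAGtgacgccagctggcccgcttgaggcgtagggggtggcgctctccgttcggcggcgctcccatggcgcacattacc
CUL4A, chr13:113209363-113209662, plus strand: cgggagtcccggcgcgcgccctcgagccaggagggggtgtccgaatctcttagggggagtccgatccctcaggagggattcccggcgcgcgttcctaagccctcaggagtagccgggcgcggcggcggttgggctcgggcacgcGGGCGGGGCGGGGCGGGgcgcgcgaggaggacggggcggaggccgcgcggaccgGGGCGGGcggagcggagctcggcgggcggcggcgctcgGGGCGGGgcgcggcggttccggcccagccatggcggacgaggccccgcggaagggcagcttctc
CUL4B, chrX:120561404-120561703, minus strand: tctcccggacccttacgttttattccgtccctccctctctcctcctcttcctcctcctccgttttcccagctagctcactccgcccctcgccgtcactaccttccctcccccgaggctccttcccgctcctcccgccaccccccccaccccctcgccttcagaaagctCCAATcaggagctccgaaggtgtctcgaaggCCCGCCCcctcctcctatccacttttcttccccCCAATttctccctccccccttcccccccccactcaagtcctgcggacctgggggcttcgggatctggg
DDB1, chr11:61333056-61333355, minus strand: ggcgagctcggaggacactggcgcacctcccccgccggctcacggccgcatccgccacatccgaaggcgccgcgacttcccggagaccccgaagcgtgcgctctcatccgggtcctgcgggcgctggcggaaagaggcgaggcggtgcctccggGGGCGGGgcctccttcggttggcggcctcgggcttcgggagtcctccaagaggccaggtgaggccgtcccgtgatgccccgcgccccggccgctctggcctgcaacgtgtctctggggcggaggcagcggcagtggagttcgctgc

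The start shared by CUL4A and PCID2 had more counts in both Inflachromene libraries than in either Carrier library, and called peaks that ran further into CUL4A. Across the merged region chr13:113208422-113209684 (1263 bp) the sums were 1219 and 1366 counts under Inflachromene, mice 11 and 35, against 898 and 848 counts under Carrier, mice 12 and 31. Scaled for library size these were 51.6 and 41.2 CPM under Inflachromene, against 29.7 and 32.4 CPM under Carrier. The groups did not overlap, and the log2 fold change of Inflachromene over Carrier was 0.58 (SE 0.17, n = 2 libraries each). The same value was obtained after shared barcodes were removed. In bulk sums, fewer open nuclei and fewer counts per nucleus cannot be told apart. edgeR's quasi-likelihood test, adjusted over 50771 regions at a threshold of 0.05, called neither this region nor any other (0.0%), and DESeq2 called 0.0653% of those it tested, this one not among them. An unadjusted edgeR p under 0.05 was found at 4.48% of regions, and at 3.04% with a higher value under Inflachromene. With Inflachromene mouse 35 left out, edgeR called 299 regions with this start among them, but the start was chosen on these same values and the call supports nothing further. In that fit the lone Inflachromene library was assumed to vary like the other group.

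The length of called peak behind these sums differed in the same direction. Called peaks covered 1234 and 1205 bp of the region under Inflachromene, against 878 and 822 bp under Carrier, a log2 difference of 0.52. Per kilobase of called peak the levels were 41.8 and 34.2 CPM under Inflachromene, against 33.8 and 39.4 CPM under Carrier. These ranges overlapped. With the covered length as an offset in the fit, the log2 fold change was 0.05 (SE 0.17). Peak length was itself called from each library's own signal. A fit with this offset therefore cannot tell a difference in peak calling from a difference in accessibility, and neither was tested. A length difference at least this large in either direction was found at 146 of 50771 regions (0.288%). The plot of length, sum and level sets the 3 quantities side by side.

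**Figure D1:**
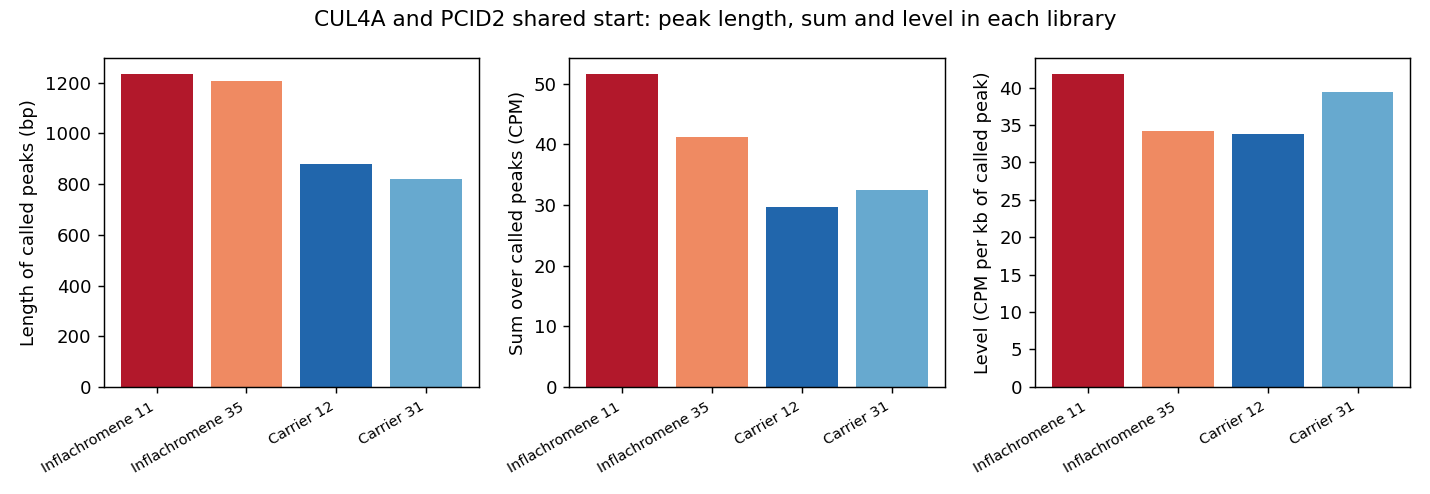
Bars give, for the start shared by CUL4A and PCID2 in each of the 4 libraries, the length of called peaks (bp), the sum of counts over them (CPM) and the level (CPM per kb of called peak). Length and sum are higher in both Inflachromene libraries, and the level, 41.8 and 34.2 against 33.8 and 39.4 in Carrier, overlaps.

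The extra length lay on the CUL4A side. In Inflachromene mouse 35 it was 1 peak, chr13:113208472-113209676. In Inflachromene mouse 11 the same stretch was called as 2 peaks, of 809 bp with 827 counts and of 425 bp with 392 counts, 43.3 and 39.0 CPM per kb. In Carrier mice the peak ended at position 113209315 in mouse 12 and at 113209337 in mouse 31. Carrier mouse 12 had a further peak at chr13:113209958-113210474 (517 bp, 228 counts, 7.55 CPM) that was called in no other library and lay outside the merged region. Counts between the end of a Carrier peak and the end of an Inflachromene peak were not analysed here, since the tables count inside each library's own peaks only.

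CUL4A has 4 annotated starts in the promoter table, and they were not covered alike. The starts at 113208694 and 113208772, and the PCID2 start at 113208669, lay inside a peak in all 4 libraries. The start at 113209613, whose window is printed above, lay inside the peaks of both Inflachromene libraries and of neither Carrier library. The start at 113208193 lay inside no peak. Of 22 promoter windows of the 9 genes, 14 had their start site inside a peak in all 4 libraries (63.6%), compared with 41.1% of all 35116 windows. The only other window covered in 2 libraries belonged to CUL1 (start site 148698363), in Inflachromene mouse 35 and Carrier mouse 12.

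In sequence, the open windows were rich in G, C and CpG. The 14 windows open in all libraries had a median GC content of 72.5% (53% to 77.7%) and a median of 34.5 CpG, against a median GC of 66% for all windows open in all libraries. The 6 windows open in none had a median GC of 44.8% (30.7% to 53.7%). The SP1 motif was found on either strand in 11 of 22 windows, from every gene but CUL2, and in 33.1% of all windows. The downstream CUL4A window holds 5 of the 20 distinct SP1 matches, of which those at positions 145, 150 and 155 from its 5′ end overlap. The ETS motif was in 10.3% of all windows and at 2 distinct sites here. One of them, chr13:113208695-113208701, is shared by PCID2 and the inner CUL4A windows and starts at position 219 of the PCID2 sequence. CCAAT was found at 5 sites in CUL1 and CUL4B (34.6% of all windows), the E-box CACGTG at 3 sites in CUL4B, CUL5 and RBX1 (7.26%), and an E2F motif (TTTCCCGC or TTTGGCGC) at 1 site in CUL4A (2.27%). The CRE TGACGTCA (1.85% of all windows) and the consensus motifs of NRF1 (1.24%) and YY1 (0.849%) were not in these windows.

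The regions around this start on chromosome 13 lay on both sides of 0. In the 5 Mb that begin at 110 Mb, 97 regions were present in all libraries, the shared start and 96 neighbours. Of the neighbours, 47 had a log2 fold change above 0 and 49 below 0, with a median of -0.01 and quartiles of -0.16 and 0.13. Neighbours at or above the value of the shared start numbered 2, both under 20 CPM. The 23 neighbours of at least 20 CPM ran from -0.21 to 0.22. Without the shared start, the window held 0.145% and 0.147% of consensus counts under Inflachromene and 0.143% and 0.149% under Carrier, ranges that overlapped (two-sided exact permutation p = 1.0, smallest possible 0.333).

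Set against its neighbours, the start held 34.7 and 28.0 counts per 1000 neighbour counts under Inflachromene, against 21.4 and 21.7 under Carrier, a log2 ratio of 0.54. With both numerator and denominator divided by covered length, the ratio was 2.28 and 1.97 under Inflachromene and 2.01 and 2.18 under Carrier. The second pair of ranges overlapped, with a log2 ratio of 0.02. No neighbour had a length difference as large as that of the start, the largest being 0.51. The nearest gene starts with a region were ATP11A, a phospholipid flippase, 519 kb before it and LAMP1, a lysosomal membrane protein, 88.1 kb after it. ATP11A had 28.0 and 25.3 CPM under Inflachromene against 21.0 and 24.8 CPM under Carrier (log2 0.22, SE 0.17), where the groups stood apart by a narrow margin. LAMP1 had 24.8 and 24.0 CPM under Inflachromene against 23.3 and 25.8 CPM under Carrier (log2 -0.01, SE 0.17). Further out on either side, TUBGCP3 (0.05), ARHGEF7 (0.02), ANKRD10 (0.14), ADPRHL1 (0.02), the start shared by DCUN1D2 and SLC9D1 (0.12) and TFDP1, which encodes the dimer partner of E2F factors (0.13), had overlapping groups.

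**Figure D2:**
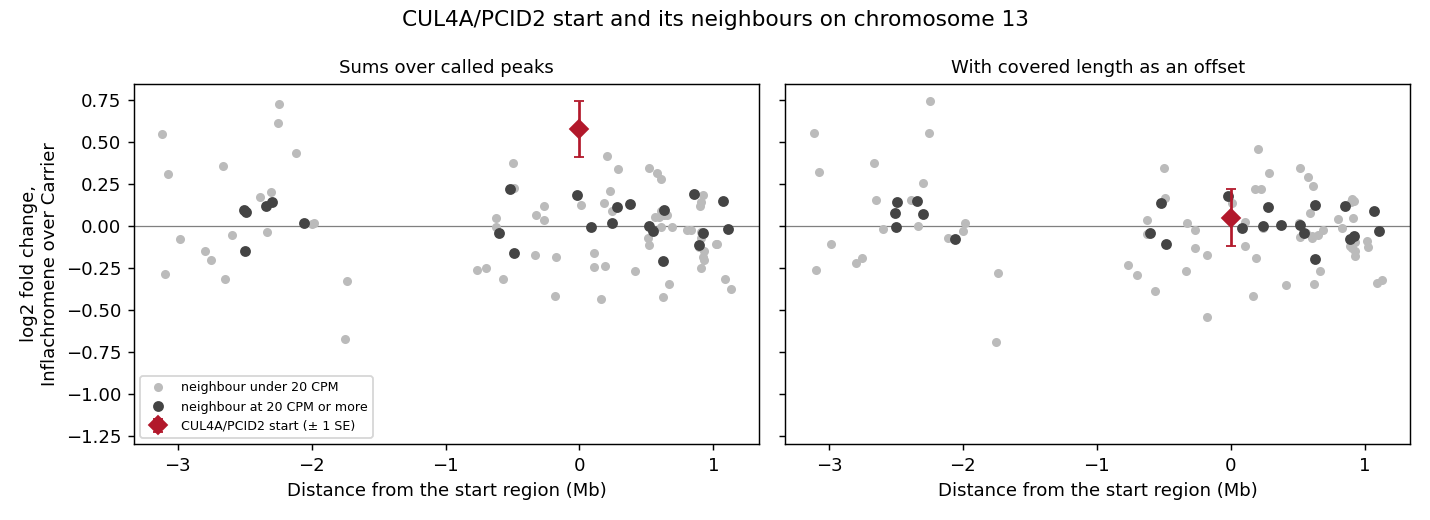
Log2 fold change of Inflachromene over Carrier (vertical axis) against distance from the shared start (Mb) for the 97 regions in the 5 Mb of chromosome 13 that begin at 110 Mb, from sums on the left and with covered length as an offset on the right; the diamond is the CUL4A and PCID2 start ± 1 SE. The start stands at 0.58 on the left, above every neighbour of at least 20 CPM, and at 0.05 on the right.

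At the main start region of each other cullin, the one with the highest mean where a gene had several, the groups overlapped in both quantities. CUL3, the scaffold of the BTB-receptor ligases, had the highest level, with 123 and 104 CPM under Inflachromene and 97.2 and 115.5 CPM under Carrier (log2 0.09, SE 0.17). CUL4B, the X-linked paralogue of CUL4A, had 102 and 87.2 CPM under Inflachromene and 88.0 and 100.2 CPM under Carrier (log2 0.00, SE 0.16). At this paralogue the groups overlapped, and its covered length differed by 0.05 (log2). CUL5, the scaffold of the SOCS-box ligases, had 62.7 and 53.1 CPM under Inflachromene and 51.4 and 55.2 CPM under Carrier (log2 0.12, SE 0.15). CUL2, the scaffold used by VHL, had 28.6 and 24.2 CPM under Inflachromene and 22.5 and 26.8 CPM under Carrier (log2 0.10, SE 0.18). This is the CUL2 start region by the promoter table, and a more open region at the 5′ end of the gene is given further on. CUL1, the scaffold of the F-box ligases, had 29.7 and 21.6 CPM under Inflachromene and 19.4 and 25.6 CPM under Carrier (log2 0.19, SE 0.21). In each of these 5 genes the lower Inflachromene library lay below the higher Carrier library.

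The groups also overlapped at the subunits that the scaffolds bind. RBX1, the RING subunit shared by most cullins, had 86.2 and 69.4 CPM under Inflachromene and 65.3 and 73.5 CPM under Carrier (log2 0.16, SE 0.16). DDB1, the adaptor of CUL4A and CUL4B, whose start region also holds the start of the triokinase gene TKFC, had 39.8 and 32.9 CPM under Inflachromene and 32.2 and 36.6 CPM under Carrier (log2 0.08, SE 0.17).

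**Figure D3:**
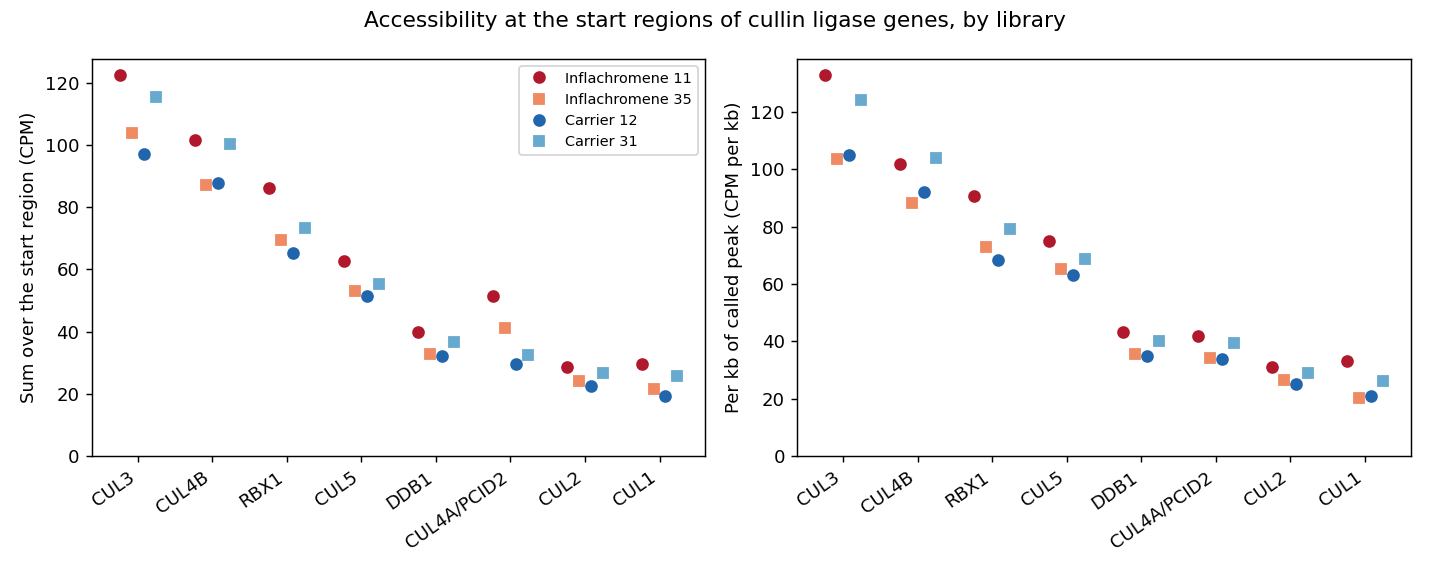
Sums (CPM, left) and levels (CPM per kb of called peak, right) at the main start region of each gene (8 regions) in the 4 libraries, 1 point per library, with genes in order of level. The Inflachromene and Carrier points separate only for the CUL4A and PCID2 sums, 51.6 and 41.2 against 29.7 and 32.4 CPM, and overlap at each of the 8 regions per kb. Over all 11324 gene-start regions, the groups stood apart at 21.2% in sums and at 2239 per kb.

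By the promoter table these genes had 9 start regions, the 8 above and a second one of CUL1. Of these 9, 8 had a log2 fold change above 0, and 65.5% of the 11324 gene-start regions did so too. The second CUL1 region, described further on, was below 0. Without Inflachromene mouse 11, only the CUL4A and PCID2 start of the 9 was above 0, and without Carrier mouse 12, 4 were. In those fits the median over all gene starts was itself below 0, at -0.05 and -0.02. The share of all gene starts above 0 in them is not given here. With counts of the surrounding 10 Mb as an offset, 5 of the 9 were above 0. With all 4 libraries and no offset, the median was 0.10 over the 9 regions and 0.04 over all gene starts. The groups stood apart at 2 of the 9 in sums, 1 higher and 1 lower under Inflachromene, against 21.2% of all gene-start regions. Per kb they stood apart at 0 of 9, against 2239 of the 11324 gene-start regions. At 8 of the 9, mouse 11 was above mouse 35 under Inflachromene and mouse 31 above mouse 12 under Carrier, as at 70.1% of all gene-start regions. The share of consensus counts that fell on gene starts was 51.9% and 47.1% in Inflachromene mice 11 and 35 and 47.3% and 50.7% in Carrier mice 12 and 31, the same order within each group. Its part in the start values was not tested.

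Levels between genes were compared per kb of called peak, as a mean over the 4 libraries. CUL3 stood at 117 ± 14.5 CPM per kb (SD, n = 4), higher than 97.0% of gene-start regions, followed by CUL4B at 96.6 ± 7.57, RBX1 at 77.8 ± 9.63 and CUL5 at 68.1 ± 5.27. A lower set held DDB1 at 38.5 ± 3.93, the CUL4A and PCID2 start at 37.3 ± 3.94, CUL2 at 27.8 ± 2.70 and CUL1 at 25.1 ± 5.93 CPM per kb. The CUL2 value is for its starts in the promoter table only, and the region at the 5′ end of CUL2 stood at 66.9 CPM per kb. Neighbours in this order had overlapping ranges over the libraries, except CUL5 above DDB1 and the CUL4A and PCID2 start above CUL2. The CUL4A and PCID2 level was higher than 42.6% of gene-start regions and the CUL1 level higher than 26.0%.

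The same starts were read as the share of nuclei with at least 1 count, among barcodes of at least 2000 counts thinned to 2000 counts each. The CUL4A and PCID2 start had a count in 8.03% (6.72% to 9.51%, exact Clopper-Pearson 95% interval, which covers counting error only) and 5.87% (4.90% to 6.98%) of nuclei in Inflachromene mice 11 and 35. In Carrier mice 12 and 31 it had one in 5.22% (4.30% to 6.27%) and 5.33% (3.98% to 6.96%). The value of mouse 11 lay above both Carrier intervals, and that of mouse 35 lay within both. These intervals are over nuclei and not over mice, so they do not measure a difference between the treatments. The median over gene starts was 6.19% and 5.37% under Inflachromene and 5.72% and 6.09% under Carrier. Without thinning the shares were 30.4% and 27.9% under Inflachromene and 19.6% and 32.7% under Carrier, and overlapped. Depth was not alike in these barcodes, with a median of 18278 and 20122.5 counts under Inflachromene and 16316.5 and 34064 under Carrier. The part of depth in the unthinned shares was not tested. At CUL3 the thinned shares were 18.3% and 14.5% under Inflachromene and 15.6% and 17.9% under Carrier, and at CUL1 they were 4.64% and 3.50% under Inflachromene and 2.42% and 6.07% under Carrier. At CUL4B they were 14.9% and 11.1% under Inflachromene and 13.2% and 19.1% under Carrier. The group means at CUL4B differed by -3.12 percentage points, larger in size than the 1.68 of the shared start. All 7 main starts other than CUL4A and PCID2 overlapped between the groups in this measure. The share of all gene starts that did so is not given here, and the shared start was chosen on summed counts of these same libraries. These shares also count inside each library's own peaks, so the length difference at the CUL4A and PCID2 start enters them.

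Beyond the starts, 22 of the 56 regions had a peak in all 4 libraries (39.3%, against 39.6% in the whole series). Of these 22, 9 were start regions by the promoter table, 9 lay in the gene body and 4 in the flanks. A log2 fold change above 0 was found at 17 and below 0 at 5, while 51.7% of all consensus regions were above 0. The median was 0.12, against 0.01 over all consensus regions. The groups did not overlap at 5 of 22 regions (3 higher and 2 lower under Inflachromene), compared with 31.5% of all consensus regions. Without Inflachromene mouse 11, 9 of the 22 were above 0. With counts of the surrounding 10 Mb as an offset, 12 were. The shares of all consensus regions above 0 in those fits are not given here.

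The largest value after the shared start was in the body of CUL3, at chr2:224485059-224486001. It had 15.7 and 16.4 CPM under Inflachromene against 9.40 and 12.8 CPM under Carrier (log2 0.54, SE 0.22). Here the called lengths were close (log2 difference 0.03), the groups stood apart per kb as well, at 17.3 and 17.9 under Inflachromene against 10.4 and 14.4 CPM per kb under Carrier, and the value with covered length as an offset was 0.51. This region holds no annotated start. Its value was 0.34 without Carrier mouse 12 and 0.77 without Carrier mouse 31. The CUL3 start itself had overlapping groups. Next came a region in the CUL2 flank, chr10:35007573-35008509, with 2.88 and 2.47 CPM under Inflachromene against 2.02 and 1.72 CPM under Carrier (log2 0.51, SE 0.28). It was the lowest of all 22.

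In the other direction, a second CUL1 start region, chr7:148699501-148700316, had 7.62 and 7.81 CPM under Inflachromene against 8.57 and 9.63 CPM under Carrier (log2 -0.24, SE 0.22). Per kb its groups overlapped. A region in CUL2, chr10:35120031-35121020, had 4.61 and 5.33 CPM under Inflachromene against 5.46 and 5.54 CPM under Carrier (log2 -0.14, SE 0.24). The region at the 5′ end of the annotated CUL2 gene, chr10:35126495-35127429, also holds the start of CREM, a cyclic AMP-responsive transcription factor. It had 65.8 and 57.2 CPM under Inflachromene and 55.6 and 66.2 CPM under Carrier (log2 0.01, SE 0.16). The promoter table lists no CUL2 start there, so it was counted as gene body. Its mean of 66.9 CPM per kb was above the 27.8 of the region used as the main CUL2 start. Inside PCID2, chr13:113186996-113187923 had 25.9 and 31.5 CPM under Inflachromene and 24.4 and 26.3 CPM under Carrier (log2 0.18, SE 0.17), and inside CUL4A, chr13:113216206-113217139 had 6.73 and 8.26 CPM under Inflachromene and 8.54 and 5.20 CPM under Carrier (log2 0.13, SE 0.28). Groups overlapped at both. Over the 21 regions other than the shared start, covered lengths differed by at most 0.19 (log2).

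**Figure D4:**
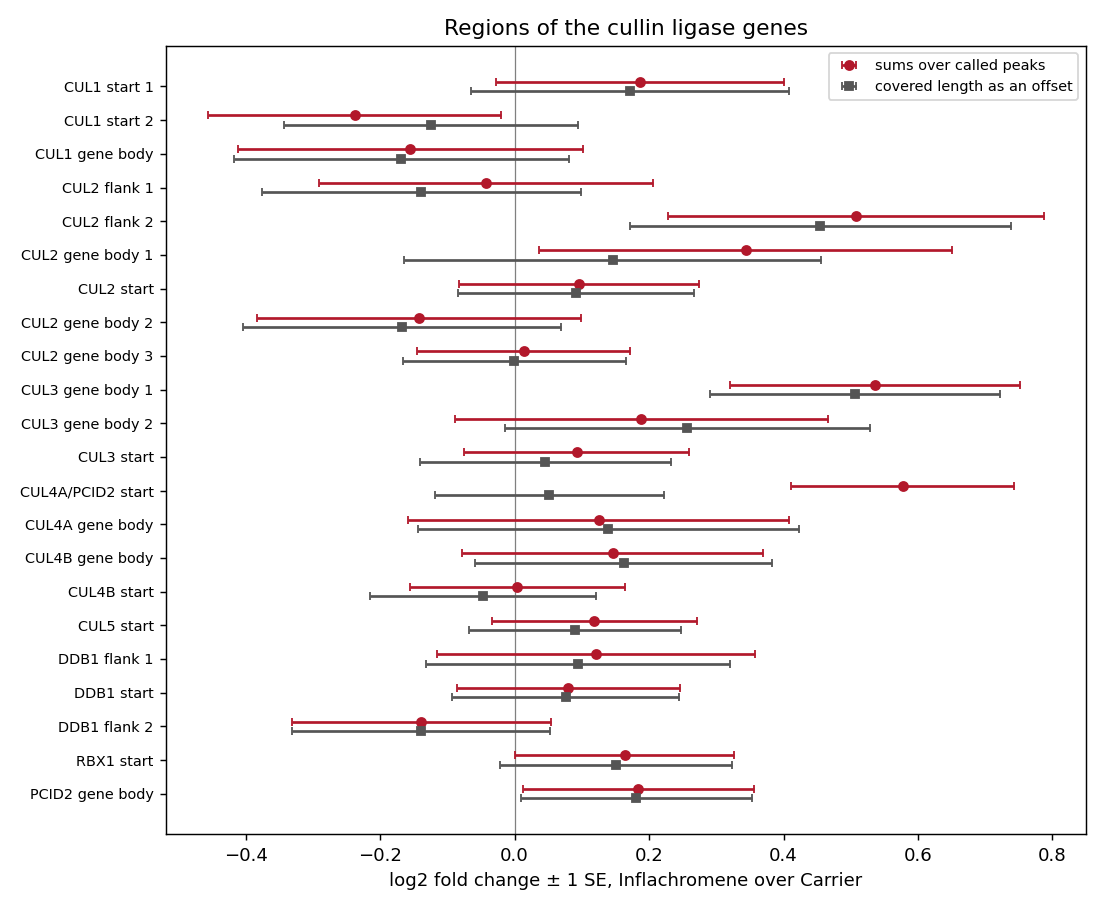
Log2 fold change ± 1 SE of Inflachromene over Carrier for the 22 regions of the 9 genes, from sums over called peaks (circles) and with covered length as an offset (squares). At the CUL4A and PCID2 start the value is 0.58 from sums and 0.05 with the offset, and in the CUL3 gene body it is 0.54 and 0.51.

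The other 34 regions were called in some libraries only. Of these, 17 were called in 1 library, among them 7 in Inflachromene mouse 11 alone, 2 in Inflachromene mouse 35 alone, 7 in Carrier mouse 12 alone and 1 in Carrier mouse 31 alone. None of the 56 regions was called in both Inflachromene libraries and neither Carrier library, a pattern of 4666 of the 128195 regions in the series. In both Carrier libraries and neither Inflachromene library there was 1 of the 56, in CUL5 (chr11:108026917-108027904, 99 and 62 counts). That pattern was found at 2046 of the 128195 regions in the series. Counts this small are not read as a trait of these genes. The series share of regions called in 1 library is not given here. The highest count of any of the 34 in a library was 436.

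The chromosome region around each start was counted as well. In windows of 5 Mb centred on the starts, the log2 ratio of Inflachromene to Carrier counts was 0.00 for CUL3, CUL2, CUL4A and CUL4B, 0.04 for RBX1, 0.07 for DDB1, 0.13 for CUL5 and -0.11 for CUL1. The window values of DDB1 and CUL5 were close to those of their starts. Counts of the surrounding 10 Mb were then used as an offset. The CUL5 start had -0.02 and the DDB1 start -0.06, against 0.12 and 0.08 without the offset. The CUL1 start had 0.26, against 0.19 without it, and the shared start had 0.53. CUL3 had 0.03, CUL2 0.06, RBX1 0.08 and CUL4B -0.03.

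The wider pathway was read from 8 lists of 59 genes, of which 56 had an open start (94.9%, against 64% of protein-coding genes), the others being KLHL13, DCAF1 and CAND2. None of the 56 passed an adjusted p of 0.05 in edgeR (0.0% of gene-start regions did). A log2 fold change above 0 was found for 42 and below 0 for 14, with a median of 0.07 against 0.05 for all protein-coding genes. Over all protein-coding genes with an open start, 66.2% were above 0. The groups did not overlap at 12 of 56, 9 higher and 3 lower under Inflachromene, against 21.2% of all gene-start regions. Without Inflachromene mouse 11, 22 of the 56 were above 0, and without Carrier mouse 12, 24 were. In those fits the median was -0.04 and -0.01 over the 56, and -0.05 and -0.02 over all gene starts. Standard errors of the values below lay between 0.14 and 0.19.

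Among scaffolds, CUL7 (0.12) and CUL9 (0.07) had overlapping groups. Of the adaptors and RING partners 4 of 5 were above 0. DDB2, the DNA damage receptor bound by DDB1, had 58.4 and 44.4 CPM under Inflachromene against 41.4 and 44.1 CPM under Carrier (log2 0.26). Its groups stood apart by a narrow margin, its covered length differed by 0.19, and with that length as an offset its value was 0.07. ELOB, an elongin, had 0.16, SKP1 0.04 and the other elongin ELOC -0.00. Of 16 substrate receptors 10 were above 0 and 6 below. The highest were VHL, the receptor for hypoxia-inducible factors, at 0.26, and FBXW7, a receptor for cyclin E and MYC, at 0.21, and the lowest were KLHL9 at -0.22 and DET1 at -0.13. With the counts of its own 10 Mb as an offset, VHL had -0.01. KLHL9, on chromosome 9, had 34.4 and 26.8 CPM under Inflachromene against 34.9 and 36.0 CPM under Carrier, and 0.07 with that offset.

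Of the 11 neddylation genes 10 were above 0. DCUN1D1, which helps transfer NEDD8 to cullins, had 0.20, the NEDD8-conjugating enzyme UBE2M 0.12, DCUN1D4 0.03, and SENP8, a NEDD8 protease, -0.12. The SENP8 start region also holds the start of MYO9A. Its covered length differed by -0.21 (log2), and with that length as an offset its value was 0.10. Of the 9 COP9 signalosome genes 6 were above 0, with COPS2 and COPS4 at 0.13 and COPS7A at -0.02. The lowest of all 56 was the signalosome subunit GPS1, whose start region also holds the start of RFNG. That region had 18.7 and 15.8 CPM under Inflachromene against 20.3 and 22.5 CPM under Carrier (log2 -0.31, SE 0.19), and the groups stood apart. The exchange factor CAND1 had 0.05 and the RBX1-binding inhibitor GLMN 0.10. Among enzymes of ubiquitin transfer, UBE2G1 had 0.11, UBE2D3 0.09, and UBE2R2 and ARIH1 each -0.02. Of the TREX-2 genes, whose complex holds PCID2 and exports messenger RNA, 4 of 5 were above 0. ENY2 and CETN3 had 0.09, the scaffold MCM3AP 0.04 and SEM1 -0.12. The start regions of COPS2, GLMN, MCM3AP and ENY2 also hold the starts of GALK2, RPAP2, YBEY and NUDCD1, in that order.

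**Figure D5:**
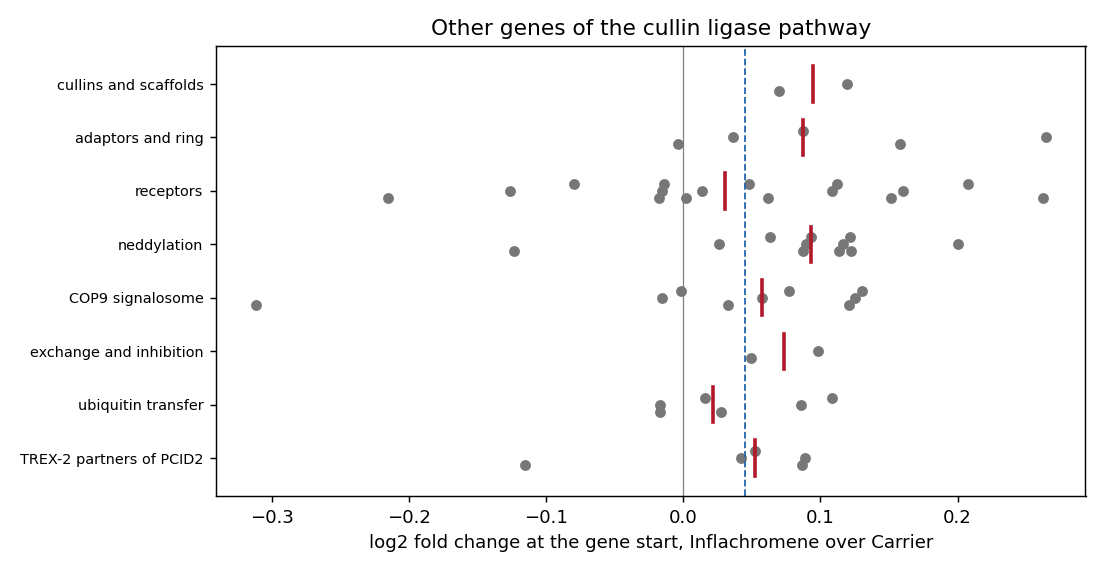
Log2 fold change of Inflachromene over Carrier at the gene start for 56 genes of the cullin pathway in 8 lists, 1 point per gene, with the list median in red and the median of all protein-coding genes, 0.05, as a dashed line. Points run from GPS1 at -0.31 to DDB2 and VHL at 0.26, and list medians lie between 0.02 and 0.09.

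Among 8712 gene-start regions of at least 20 CPM, the pattern over the 4 libraries most like that of the shared start, by Euclidean distance between log2 values centred on their mean, was at RHOBTB1, whose protein carries BTB domains, at a distance of 0.0669. RHOBTB1 had 30.2 and 23.7 CPM under Inflachromene against 18.2 and 19.6 CPM under Carrier (log2 0.51, SE 0.19), and 0.49 with covered length as an offset. Next were the start shared by ASPRV1 and PCBP1 (distance 0.133, log2 0.50, SE 0.15, and 0.27 with the offset) and the start shared by FAM76B and CEP57 (distance 0.149, log2 0.45, SE 0.15, and 0.03 with the offset). At FAM76B and CEP57 the called peaks were 997 and 991 bp under Inflachromene against 742 and 738 bp under Carrier. The log2 difference in covered length was 0.43 at that start, 0.23 at ASPRV1 and PCBP1 and 0.02 at RHOBTB1. These 3 starts were picked for a pattern like that of the shared start. Fold changes from sums that are close to its own follow from that choice, and no link between these genes was tested.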

How the data were processed

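Single-nucleus ATAC libraries were prepared with the 10x V2 kit, per the labels' protocols. Cell Ranger ATAC 2.1.0 produced the peak-by-barcode matrices on GRCh38, per the file headers and the submitters' processing notes, which also list Cell Ranger ARC without a role. The deposited counts are whole-number counts per peak and barcode, and the authors called peaks separately in each library. How fragments were turned into counts is not given in the sources used here, and 82.4% to 84.9% of stored values were even.

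Overlapping peaks of the 4 libraries (minimum 1 bp) were joined into 128195 regions, of which 50771 had a peak in every library. Counts were summed over all barcodes of a library and tested with edgeR 4.0.16 (TMM, quasi-likelihood F test, Benjamini-Hochberg adjustment over all regions, threshold 0.05) in R 4.3.3. Standard errors were taken from the fold change and F. CPM are per 1e6 consensus counts, scaled by TMM. A start region lay within 1000 bp of a start in the promoter table, or of either gene end where a gene had no entry there. Names and promoters came from RefSeq tables (GRCh38.p14). Of the pathway genes, CUL7, ELOC, BTRC, VHL, DCAF1, SOCS2, COPS5, ENY2 and CETN3 had no entry in the promoter table. DESeq2 1.42.0 was an alternative. Because peaks differed in length between libraries, a fit with covered length as an offset was added after the data were seen, as was the removal of shared barcodes. The fit was tested on simulated counts.

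Depth and barcodes per library were 27088391 counts over 4067 barcodes and 39947056 over 3276 under Inflachromene, and 33336531 over 5186 and 29295799 over 2039 under Carrier. Doublets and mouse nuclei were not called, and no cell types were assigned. The genes and lists were chosen with earlier results of these data known. The text names all regions of the 9 genes that stood apart, the 4 nearest gene starts on each side, the 2 highest and 2 lowest genes of each pathway list, and the 3 starts of most similar pattern.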

Additional observations from a re-analysis of the deposited data

How the results depend on the processing

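The log2 fold change at the CUL4A and PCID2 start lay between 0.53 and 0.59 under every alternative that used all 4 libraries and summed counts, and between 0.41 and 0.72 with 1 library left out. It was 0.0517 with covered length as an offset, and the log2 ratio to its neighbours, 0.54 from sums, was then 0.0196. That ratio was 0.38 to 0.69 with 1 library left out. edgeR called 0 of 50771 regions, with 2274 at an unadjusted p under 0.05, and DESeq2 called 28. Leaving out 1 library gave 0 to 3180 called (3180 without Inflachromene mouse 11, 299 without Inflachromene mouse 35, 5 without Carrier mouse 31, 0 without Carrier mouse 12). Of the 22 regions of the 9 genes, 17 were above 0, 9 to 16 with 1 library left out and 12 with the surrounding 10 Mb as an offset. Of the 56 pathway genes, 42 were above 0, 22 to 50 with 1 library left out and 35 with the surrounding 10 Mb as an offset. The median over all gene starts, 0.04 with all libraries, ran from -0.05 to 0.12 with 1 library left out. The cause of these changes was not tested. The share of counts in the chromosome 13 window differed by -5.33e-05 percentage points, and turned to 0.000222 with barcodes of at least 2000 counts and 4.18e-05 without shared barcodes; with 1 library left out it ran from -0.00289 to 0.00279. With every peak of each library counted it was -0.00628, lower in both Inflachromene libraries than in either Carrier library (exact permutation p = 0.333, the smallest possible). The share of nuclei with a count at the shared start differed by 1.68 percentage points after thinning to 2000 counts, 2.997 without thinning and 3.31 at 4000 counts, and by 0.603 to 2.76 with 1 library left out. No paired analysis was possible because the mouse numbers differ between all 4 libraries. With 2 libraries per group, an exact permutation test cannot give a p below 0.333.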

Other observations

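Called peaks differed in length elsewhere in the series too. At the 146 regions with a length difference at least as large as that of the CUL4A and PCID2 start, peaks were longer under Inflachromene at 76 and shorter at 70. The log2 fold change from sums had the sign of the length difference at 140 of them, with a median size of 0.53, and 0.21 with covered length as an offset. Across all 50771 regions, Pearson's r between the length difference and the log2 fold change was 0.273, as a description, since both are read from the same peaks and libraries. Of the 146 regions, 42 were at gene starts, as were 11324 of all 50771 regions.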
